A study of Mus musculus with 59 samples.

Results

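The genes described here are 8 genes of the primitive streak and early mesoderm, *T*, *Mixl1*, *Eomes*, *Mesp1*, *Gsc*, *Lhx1os*, *Kdr* and *Msgn1*, taken by symbol from the 24391 genes listed for every library. The RNA-seq data comprise 59 libraries of 6 conditional mouse ESC lines. ESCs are pluripotent cells, kept here on MEF feeder cells with LIF and 3i, a set of inhibitors of FGFR, MEK and GSK3β. EBs are the aggregates that ESCs form during 2 days of suspension culture without LIF and 3i, so stage, medium and the presence of feeders change together and cannot be told apart. Every line carries ERT2-Cre, a recombinase expressed from the *Rosa26* locus that 4-OHT activates, and each line has ESCs and EBs without 4-OHT (control) and with 4-OHT (mutant). The authors deleted *Pcgf1* to *Pcgf5* 2 days before EB formation, and *Pcgf6* and, in *Ring1A/B* cells, *Ring1B* at its start. Time since deletion may therefore also differ between mutant ESCs and mutant EBs. The strain is not given in the sources used here, and whether replicates came from separate cultures is not stated, so the p-values below measure the spread between these libraries, which may be technical.

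In the *Pcgf1* line, control cells are *Pcgf1* f/f and 4-OHT treated cells are *Pcgf1* delta/delta (*Pcgf1*-KO). PCGF1 is the subunit that defines a variant form of PRC1, the complex that ubiquitinates histone H2A through RING1A or RING1B. There are 4 libraries of control ESCs and 5 each of *Pcgf1*-KO ESCs, control EBs and *Pcgf1*-KO EBs. In the point mutant line, all cells are *Ring1A* pm/pm, so the control cells already carry point mutations in 1 of the 2 *Ring1* genes, and 4-OHT adds *Ring1B* pm/pm, with 2 libraries per group. The *Ring1A/B* line is *Ring1A* -/- in all cells, with *Ring1B* f/f in controls and *Ring1B* delta/delta after 4-OHT. The *Pcgf2/4*, *Pcgf3/5* and *Pcgf6* lines carry f/f alleles of the genes in their names, which become delta/delta after 4-OHT. These 4 lines have 2 libraries per group.

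The primitive streak is the place in the gastrulating embryo where epiblast cells leave the epithelium to become mesoderm and endoderm. Nodal, Wnt and BMP signals induce it, the T-box factors Brachyury (*T*) and EOMES act early in it, and *Mixl1* and *Gsc* encode homeodomain factors of the streak and its anterior end. *Mesp1* and *Msgn1* encode bHLH factors of cardiac and paraxial mesoderm progenitors, and *Kdr* encodes the VEGF receptor that marks progenitors of blood and endothelium. *Lhx1os* is a non-coding transcript next to *Lhx1*, a homeobox gene of the anterior mesendoderm. PRC1 is known to occupy many developmental genes with CpG-rich promoters in ESCs, and the comparisons below ask how the streak genes stood when PCGF1 or RING1 catalytic activity was removed.

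Because PRC1 is linked to CpG-rich promoters, the 250 bases before the start of the 3 members with called differences between mutant and control cells are shown, with CG dinucleotides in capitals. The sequences are from RefSeq on GRCm38.p6, in the direction of transcription, and 7 of the 8 members had an entry, *Mixl1* being the exception.
*T*, chr17:8434173-8434422, plus strand: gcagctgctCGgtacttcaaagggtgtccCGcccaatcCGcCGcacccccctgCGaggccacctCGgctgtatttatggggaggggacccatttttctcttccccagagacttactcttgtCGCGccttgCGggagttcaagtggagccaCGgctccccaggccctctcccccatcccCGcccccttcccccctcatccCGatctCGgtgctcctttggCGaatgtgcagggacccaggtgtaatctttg
*Eomes*, chr9:118477939-118478188, plus strand: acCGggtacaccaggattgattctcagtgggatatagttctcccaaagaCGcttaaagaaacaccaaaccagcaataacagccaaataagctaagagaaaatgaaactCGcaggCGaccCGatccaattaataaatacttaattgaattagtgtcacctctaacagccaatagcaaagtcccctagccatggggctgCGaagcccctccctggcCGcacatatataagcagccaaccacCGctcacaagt
*Mesp1*, chr7:79793591-79793840, minus strand: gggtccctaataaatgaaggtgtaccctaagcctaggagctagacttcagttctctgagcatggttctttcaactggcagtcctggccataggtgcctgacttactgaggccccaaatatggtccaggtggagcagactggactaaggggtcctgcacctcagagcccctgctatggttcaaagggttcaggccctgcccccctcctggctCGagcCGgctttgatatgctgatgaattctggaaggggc
The 3 windows differ in CG content. The *T* window holds 14 CG dinucleotides, a number reached or passed by 29.4% of 32851 RefSeq promoter windows of the same length. *Eomes* has 8 (43.0% of windows have as many) and *Mesp1* has 2 (81.2%), against a median of 6 over all windows. Among the other members, *Lhx1os* has 24, *Gsc* 22, *Kdr* 16 and *Msgn1* 4.

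On mm9, the build of the expression files, *T* lies at chr17:8627288-8635361, *Mixl1* at chr1:182623174-182627165, *Eomes* at chr9:118387330-118395250, *Mesp1* at chr7:86937127-86938674, *Gsc* at chr12:105709419-105711537, *Kdr* at chr5:76328852-76374483 and *Msgn1* at chr12:11215188-11215754. The values are TPM, transcript abundances per gene length that sum to 1000000 in each library, so levels can be compared between genes. TPM keep no read number. The depth is therefore unknown, and between 6039 and 9139 genes are listed at 0 per library. Differences are log2 fold changes of TPM + 0.1 from limma with their SE, which understate the change of low genes, and a gene was called at an adjusted p below 0.05 (Benjamini-Hochberg over all genes tested in the line). A fold change is given only where a group compared has a mean of at least 0.5 TPM.

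The labels of the *Pcgf1* line held against the targeted gene and against stage markers. *Pcgf1* transcripts stood at 10.7 to 13.6 TPM in control ESCs against 0.627 to 2.77 TPM in *Pcgf1*-KO ESCs, and 7.30 to 16.6 against 0.978 to 2.47 TPM in EBs. The mutations of the point mutant line leave the transcripts in place, so *Rnf2* (*Ring1B*, 54.5 to 85.8 TPM) and *Ring1* (*Ring1A*, 9.11 to 15.6 TPM) check nothing. The naive ESC markers fell in control EBs in both lines (7 of 7 genes each) and the formative epiblast markers rose (5 of 5 each). *Klf4*, a naive pluripotency factor, went from a mean of 957.6 to 7.42 TPM in the *Pcgf1* line. Feeder fibroblast genes summed to between 193 and 277 TPM in control and 147 and 220 TPM in *Pcgf1*-KO ESCs of this line. In its EBs they summed to 24.1 to 45.6 TPM (control) and 7.54 to 13.9 TPM (*Pcgf1*-KO). Of these 9 genes, 5 were called lower and 2 higher (*Dcn* and *Thy1*) in control EBs than in control ESCs. Over all genes 24.9% were called. *Thy1* averaged 20.8 TPM in control EBs and 3.13 TPM in *Pcgf1*-KO EBs, and *Col1a1* 5.43 and 4.79 TPM. For 21 of the 32 libraries of the remaining 4 lines, the file is named for another condition than the sample label gives, and these lines are given by label, without a test, at the end.

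In the *Pcgf1* line most of the streak genes were low. *Eomes* had the highest mean of the 8 in every group, with a mean of 20.6 ± 7.52 TPM in control ESCs (SD, n = 4), above 71.7% of all genes. *Gsc*, *T*, *Mixl1* and *Kdr* followed with 3.10, 1.27, 0.354 and 0.191 TPM, against a median of 1.88 TPM over all genes. In *Pcgf1*-KO ESCs *Gsc* (2.98 TPM) and *T* (2.72 TPM) lay above the median of 1.83 TPM. *Mesp1*, *Msgn1* and *Lhx1os* were listed at 0 in nearly all of the 19 libraries. *Mesp1* was above 0 in 1 control ESC library (0.151 TPM) and 1 control EB library (0.141 TPM), *Msgn1* in 1 of each (0.143 and 0.420 TPM), and *Lhx1os* in a single *Pcgf1*-KO EB library (0.590 TPM). No fold is given for these 3 genes or for *Kdr* in this line.

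**Figure D1:**
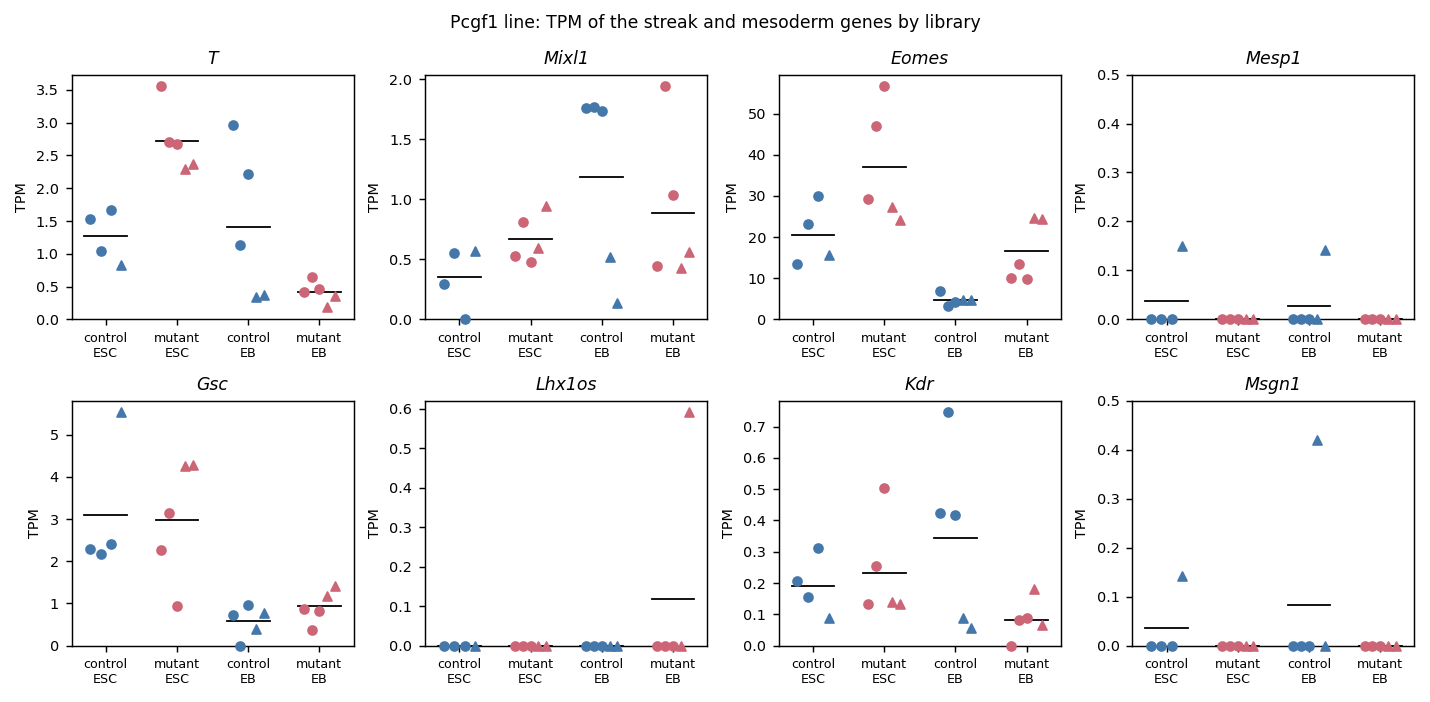
TPM of the 8 genes (vertical axis, each panel with its own scale from 0) in each library of the *Pcgf1* line, by group. Points are libraries (circles, replicates 1 to 3; triangles, replicates 4 and 5) and bars are group means. *Eomes* of *Pcgf1*-KO EBs (9.74 to 24.7 TPM) lies above all control EBs (3.28 to 6.83 TPM), and *T* of *Pcgf1*-KO ESCs above all control ESCs.

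*Eomes*, which encodes a T-box factor needed for the streak and for endoderm, fell between control ESCs and control EBs. It was 13.4, 23.2, 29.95 and 15.7 TPM in control ESCs and 6.83, 3.28, 4.27, 4.68 and 4.67 TPM in control EBs, with no overlap. The log2 fold change was -2.06 ± 0.34 (SE, limma adjusted p = 0.000198). *Gsc*, a homeobox gene of the organizer region, fell as well, from 2.29, 2.17, 2.42 and 5.53 TPM in control ESCs to 0.736, 0, 0.966, 0.405 and 0.778 TPM in control EBs. Its log2 fold change was -2.50 ± 0.62 (limma adjusted p = 0.00588). These were the 2 of 8 members called, while 24.9% of all 20594 genes tested were called in this comparison (43.9% when the replicate number was a block). The median log2 fold change of the members was -0.039, against -0.0045 over all genes. In the 3 library series that the file headers separate, *Eomes* differed by -0.96 (replicate 1), -2.78 (replicates 2 and 3) and -1.73 (replicates 4 and 5) on the log2 scale, and *Gsc* by -1.51, -2.87 and -3.08. Without replicates 4 and 5 the call of *Gsc* was lost (log2 fold change -2.42, adjusted p = 0.0571).

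*T* and *Mixl1* did not pass the test between control ESCs and control EBs, and their control EB libraries split into separate levels. *T* was 1.53, 1.04, 1.66 and 0.833 TPM in control ESCs, and 2.96, 1.13, 2.22, 0.349 and 0.372 TPM in control EBs (log2 fold change -0.22 ± 0.51, limma adjusted p = 0.808). *Mixl1*, a target of Nodal signalling, was 0.293, 0.556, 0 and 0.567 TPM in control ESCs against 1.76, 1.77, 1.73, 0.520 and 0.133 TPM in control EBs (log2 fold change 1.44 ± 0.66, limma adjusted p = 0.128). Control EBs of replicates 4 and 5 were thus the lowest for both genes. They were also the lowest for *Kdr* (0.0874 and 0.0559 TPM against 0.416 to 0.745 TPM in the other 3). Within library series, the difference of *Mixl1* was 2.24, 2.85 and -0.81, and that of *T* 0.91, 0.25 and -1.02, in the order of the series above. Without replicates 4 and 5, *Mixl1* was called higher in control EBs (log2 fold change 2.65, adjusted p = 0.0183) and *T* was at 0.47 (adjusted p = 0.485). Leaving out control EB replicate 5 alone also brought a call of *Mixl1* (1.96, adjusted p = 0.0230). In the same control EBs the formative marker *Fgf5* was 26.6 and 25.4 TPM in replicates 4 and 5 against 46.2 to 68.5 TPM in the other 3, and *Klf4* was 12.4 and 11.7 against 3.54 to 5.90 TPM. The part of these differences in the result was not tested.

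In *Pcgf1*-KO cells *T* fell between the stages. It was 3.57, 2.71, 2.68, 2.29 and 2.38 TPM in *Pcgf1*-KO ESCs and 0.418, 0.652, 0.465, 0.192 and 0.360 TPM in *Pcgf1*-KO EBs, with no overlap and a decrease in 5 of 5 same-numbered pairs. The log2 fold change was -2.50 ± 0.48 (limma adjusted p = 0.000987), and -2.82, -2.10 and -2.73 within the 3 library series. *Eomes* fell too, from 29.3, 47.1, 56.8, 27.3 and 24.2 TPM to 10.1, 13.5, 9.74, 24.7 and 24.5 TPM (log2 fold change -1.20 ± 0.32, limma adjusted p = 0.0129). That fall was not even between series, at -1.53, -2.16 and -0.06. *Gsc* was 2.28, 3.15, 0.934, 4.25 and 4.29 TPM in *Pcgf1*-KO ESCs against 0.874, 0.379, 0.811, 1.17 and 1.41 TPM in *Pcgf1*-KO EBs. It did not pass the test (log2 fold change -1.51 ± 0.58, limma adjusted p = 0.0853) but did when blocked on the replicate number (adjusted p = 0.0286). Thus 2 of 8 members were called, both lower, against 18.3% of all genes, and 3 of 8 with the block against 36.8% of all genes. *Mixl1* was 0.479 to 0.944 TPM in *Pcgf1*-KO ESCs and 0.429 to 1.94 TPM in *Pcgf1*-KO EBs, without a call.

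None of the 8 genes passed the test between *Pcgf1*-KO and control ESCs in limma, where 0.641% of all genes were called (5.31% with the block, again with no member). Unadjusted, 2 of the 8 members had p under 0.05, against 1777 of all 20594 genes. The 2 members were *T* and *Eomes*, both with higher means in *Pcgf1*-KO ESCs. *T* was 2.29 to 3.57 TPM in *Pcgf1*-KO ESCs against 0.833 to 1.66 TPM in control ESCs, without overlap and higher in 4 of 4 same-numbered pairs (log2 fold change 1.08 ± 0.51, limma adjusted p = 0.566, and 0.104 with the block). The difference of *T* was 1.17, 0.98 and 1.38 within the 3 library series. *Eomes* was 24.2 to 56.8 TPM against 13.4 to 29.95 TPM, with overlap but higher in 4 of 4 same-numbered pairs (log2 fold change 0.83 ± 0.34, limma adjusted p = 0.447). *Mixl1* was 0.479 to 0.944 against 0 to 0.567 TPM, also higher in 4 of 4 pairs (log2 fold change 1.05 ± 0.66, limma adjusted p = 0.755). *Gsc*, with -0.11 ± 0.62, had overlapping groups.

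Between *Pcgf1*-KO and control EBs, *Eomes* was called higher, at a mean of 16.5 ± 7.52 TPM (SD, n = 5) against 4.74 ± 1.30 TPM (SD, n = 5). The 2 groups did not overlap, and *Eomes* was higher in 5 of 5 same-numbered pairs. The log2 fold change was 1.70 ± 0.32 (limma adjusted p = 0.00831). It was the only member called, against 1.95% of all genes (10.4% with the block). The size of the difference was unequal, with 0.55, 1.59 and 2.37 in the 3 library series. Without replicates 4 and 5 it was 1.25 and no longer called (adjusted p = 0.271), and when only the EB groups were fitted the adjusted p was 0.0516. In those 2 replicates, *Pcgf1*-KO EBs also had *Klf4* at 74.6 and 62.0 TPM, against 4.85 to 20.2 TPM in the other 3. Of 6 primitive endoderm genes, 2 were called higher in *Pcgf1*-KO EBs and none lower. These were *Gata6* and *Gata4* (log2 fold changes 2.60 ± 0.57 and 1.40 ± 0.34). *Dab2* of the same list went the other way without a call, at 5.08 TPM on average in *Pcgf1*-KO EBs and 9.10 TPM in control EBs. The 6 primitive endoderm markers summed to between 8.38 and 22.7 TPM in *Pcgf1*-KO EBs and between 6.83 and 18.7 TPM in control EBs. Their part in the *Eomes* result was not tested.

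*T* stood the other way in EBs, at 0.192 to 0.652 TPM in *Pcgf1*-KO against 0.349 to 2.96 TPM in control EBs. It was lower in 5 of 5 same-numbered pairs, the groups overlapped, and the difference did not pass the test (log2 fold change -1.19 ± 0.48, limma adjusted p = 0.281, and 0.0566 with the block). Within the 3 library series the difference was -2.56, -1.37 and -0.33. With the library series as a factor, a fit chosen after the values had been seen, it was called (adjusted p = 0.0377). *Kdr* was 0, 0.0816, 0.0874, 0.180 and 0.0676 TPM in *Pcgf1*-KO EBs and 0.423, 0.745, 0.416, 0.0874 and 0.0559 TPM in control EBs. *Kdr* was therefore lower in replicates 1 to 3 and higher in replicates 4 and 5. In these bulk samples fewer cells that express a gene and less RNA per cell cannot be told apart. *Mixl1* (0.429 to 1.94 against 0.133 to 1.77 TPM) and *Gsc* (0.379 to 1.41 against 0 to 0.966 TPM) overlapped.

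Since the estimates for *T* in ESCs and in EBs, neither of them called, had opposite signs, the difference between them was tested directly. It was -2.27 ± 0.70 on the log2 scale and was not called without the block (limma adjusted p = 0.483), where 0.00486% of all genes were called. Blocking on the replicate number gave -2.40, which was called (adjusted p = 0.0438), where 1.62% of all genes were. No other member was called for this difference in either fit, and unadjusted p was under 0.05 for 1 member without the block (*T*) and 2 members with it. Unadjusted p was that low for 1195 of all 20594 genes without the block and 3242 with it. *Eomes* had 0.86 ± 0.47.

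**Figure D2:**
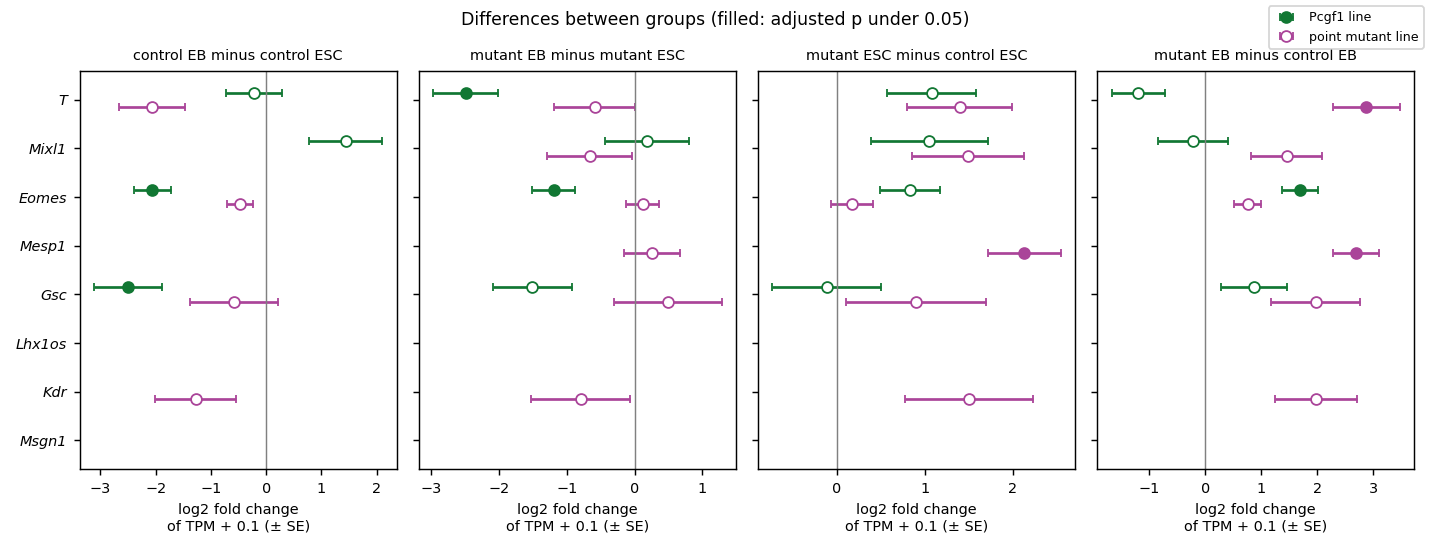
Log2 fold change of TPM + 0.1 (horizontal axis, ± SE from limma) of the 8 genes in 4 comparisons, in the *Pcgf1* line (green) and the point mutant line (purple), each panel with its own scale. Filled points have an adjusted p below 0.05 and genes without a point had group means under 0.5 TPM. Between mutant and control EBs, *Eomes* was called in the *Pcgf1* line (1.70) and *T* (2.88) and *Mesp1* (2.69) in the point mutant line.

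In the point mutant line, where H2A ubiquitination by RING1A and RING1B is the activity targeted, *Mesp1* was called higher in both stages. *Mesp1* was 0.308 and 0.291 TPM in control ESCs and 1.67 and 1.63 TPM in mutant ESCs (log2 fold change 2.14 ± 0.41, limma adjusted p = 0.0459). In EBs it was 0.282 and 0.173 TPM in controls against 2.33 and 1.69 TPM in mutants (log2 fold change 2.69 ± 0.41, limma adjusted p = 0.0187). *Mesp2*, the neighbouring bHLH gene, was 1.63 and 2.10 TPM against 4.96 and 6.29 TPM in ESCs, and 2.27 and 2.98 against 5.402 and 6.91 TPM in EBs. It did not pass the test (limma adjusted p = 0.0564 and 0.0852). Reads shared by the 2 genes could not be examined. The call of *Mesp1* in ESCs was lost in each of the 8 fits that left out 1 library (adjusted p 0.0707 to 0.190), with median-of-ratios scaling (0.0581) and with quantile normalization (0.204). That in EBs was kept in 2 of 8 such fits, without either control ESC library, and the log2 fold change stayed between 2.45 and 2.94.

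*T* was called higher in mutant EBs of this line, at 1.64 and 3.64 TPM against 0.223 and 0.273 TPM in control EBs (log2 fold change 2.88 ± 0.60, limma adjusted p = 0.0430). The call was lost in each of the 8 fits that left out 1 library, where the log2 fold change was 2.32 to 3.43, and with a pseudocount of 1 (adjusted p = 0.0740). In ESCs it was 3.89 and 3.58 TPM in mutants and 2.35 and 0.765 TPM in controls, with a wider spread between controls (log2 fold change 1.40 ± 0.60, limma adjusted p = 0.298). The *Pcgf1* line had -1.19 for *T* in EBs, which was not called, and since the lines were fitted apart the difference between them was not tested.

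*Kdr*, *Gsc* and *Mixl1* did not pass the test. Mutants lay above controls without overlap in both stages, as they did for 32.5% of all genes in ESCs and 30.1% in EBs. *Kdr* was 1.40 and 0.287 TPM in control ESCs, 2.59 and 1.64 TPM in mutant ESCs, 0.390 and 0.102 TPM in control EBs and 1.20 and 1.09 TPM in mutant EBs. *Gsc* was 1.41 and 3.20 TPM in control ESCs, 3.58 and 4.62 TPM in mutant ESCs, 0.517 and 3.48 TPM in control EBs and 7.25 and 4.53 TPM in mutant EBs. The levels of *Mixl1* were lower, at 0.651 and 0.274 TPM in control and 1.77 and 1.09 TPM in mutant ESCs, and 0.133 and 0.406 TPM in control and 0.548 and 1.26 TPM in mutant EBs. In EBs, limma gave log2 fold changes of 1.98 ± 0.73 for *Kdr* (adjusted p = 0.177), 1.97 ± 0.80 for *Gsc* (adjusted p = 0.217) and 1.45 ± 0.63 for *Mixl1* (adjusted p = 0.251).

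*Eomes* had the smallest mutant effects of the members given a fold, at 10.4 and 9.44 TPM in control ESCs, 10.5 and 11.9 TPM in mutant ESCs, 6.66 and 7.61 TPM in control EBs and 10.1 and 14.6 TPM in mutant EBs. Its log2 fold change was 0.76 ± 0.24 in EBs (limma adjusted p = 0.124) and 0.17 ± 0.24 in ESCs, a direction that turned with quantile normalization (-0.01). *Lhx1os* was 0, 0 and 0, 0.235 TPM in control and mutant ESCs, and 0.243, 0.298 and 0.223, 0.731 TPM in control and mutant EBs. *Msgn1* stayed between 0 and 0.328 TPM in all 8 libraries, and no fold is given for either.

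In all, 1 of 8 members was called between mutant and control ESCs, against 2.54% of all 20279 genes tested, and 2 of 8 between mutant and control EBs, against 4.53%. Mutants lay above controls without overlap for 6 of 8 members in ESCs and the same 6 in EBs. With 2 libraries per group, 32.5% of all genes in ESCs and 30.1% in EBs did the same. The median log2 fold change of the members was 1.15 in ESCs and 1.71 in EBs, against 0.12 and 0.10 over all genes. With median-of-ratios scaling, which removes this shift of all genes, *T* and *Mesp1* were still called in EBs. Quantile normalization removes it as well, and there the call of *T* was lost (log2 fold change 2.39, limma adjusted p = 0.0544) and that of *Mesp1* was kept. The called genes were mostly higher in mutants, 475 to 40 in ESCs and 763 to 155 in EBs, and less so after quantile normalization (167 to 40 and 481 to 299).

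Between control EBs and control ESCs of the point mutant line no member was called in limma, against 4.73% of all genes, and 2 of 8 had an unadjusted p under 0.05. Of all 20279 genes tested, 4123 had an unadjusted p that low. *T* fell in the means, from 1.56 to 0.248 TPM without overlap (log2 fold change -2.07 ± 0.60, limma adjusted p = 0.106, and 0.0496 after quantile normalization). With 2 libraries per group, 4603 of 20279 genes were lower without overlap in this comparison. Between mutant EBs and mutant ESCs no member was called and none had an unadjusted p under 0.05, against 0.133% of all genes called. Here 1974 of all genes had an unadjusted p under 0.05. *T* had a mean of 3.74 TPM in mutant ESCs and 2.64 TPM in mutant EBs. The difference between the effects in EBs and ESCs was called for no member, with none under an unadjusted p of 0.05, and for 0.00986% of all genes. Of all genes, 1076 were under that unadjusted p.

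**Figure D3:**
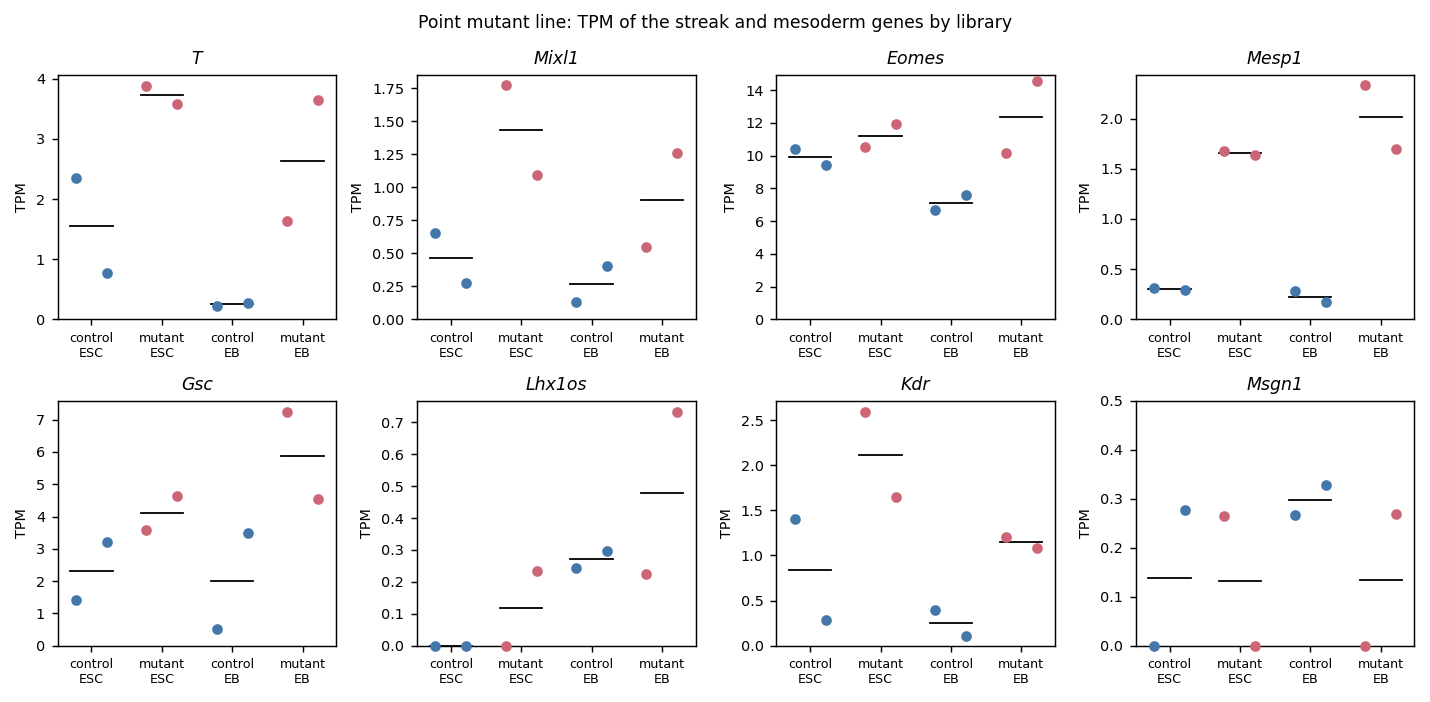
TPM of the 8 genes (vertical axis, each panel with its own scale from 0) in the 2 libraries of each group of the point mutant line. Points are libraries and bars are group means. *Mesp1* of mutants (1.63 to 2.33 TPM) lies above controls (0.173 to 0.308 TPM) in both stages.

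Markers of other cells moved in the same comparison. Feeder fibroblast genes summed to 66.2 to 69.8 TPM in mutant and 28.7 to 32 TPM in control EBs, and to 60.9 to 65.7 and 35.7 to 40.1 TPM in mutant and control ESCs, with 4 of 9 called higher in EBs and none in ESCs. *Twist2*, a mesenchymal bHLH gene of that list, was 1.33 TPM on average in mutant EBs. Primitive endoderm genes summed to 30.6 to 33.6 TPM in mutant EBs against 13.6 to 18.4 TPM in controls, and to 23.7 to 25.2 against 4.96 to 6.18 TPM in ESCs. Naive ESC genes summed to 1720 to 1834 TPM in mutant EBs against 834.6 to 1106 TPM in controls, with 3 of 7 called higher. Of the formative epiblast genes, 4 of 5 were called lower there. Over all genes, 4.53% were called between mutant and control EBs and 2.54% between mutant and control ESCs. The part of these markers in the results of *T* and *Mesp1* was not tested.

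Among 12 signals that induce the streak or hold it back, *Wnt8a* and *Fgf8* had the largest called rises from control ESCs to control EBs of the *Pcgf1* line (6.80 ± 0.84 and 3.42 ± 0.53). Of the 12, 5 were called higher and 1 lower in control EBs, against 24.9% of all genes called, and 5 higher and 2 lower in *Pcgf1*-KO EBs, against 18.3%. The list medians were 0.30 and 0.053. From *Pcgf1*-KO ESCs to *Pcgf1*-KO EBs, *Wnt8a* (3.66 ± 0.80) was followed by *Lefty1*, a Nodal inhibitor, which rose from 31.3 to 272 TPM (3.13 ± 0.18), and by *Fgf8* (1.56 ± 0.50). *Wnt8a* was listed at 0 in all control ESCs and averaged 12.6 TPM in control EBs. *Wnt3a*, the ligand needed for posterior mesoderm, fell from 1.62 to 0.0812 TPM in *Pcgf1*-KO cells (log2 fold change -3.42 ± 0.53). *Tdgf1*, the Nodal co-receptor, fell from 1342 to 775 TPM in controls and from 1416.5 to 775 TPM in *Pcgf1*-KO cells. Between *Pcgf1*-KO and control cells, *Bmp4* was called higher in ESCs (2.00 ± 0.42) and *Lefty2*, related to *Lefty1*, in EBs (0.77 ± 0.18), and no other gene of the list was called. Among the point mutant libraries, *Fgf8* was called higher in mutant ESCs (2.66 ± 0.32), and *Wnt3a* (2.72 ± 0.59), *Bmp4* (1.18 ± 0.18) and *Nodal* (0.69 ± 0.15) in mutant EBs. *Wnt3a* averaged 1.05 TPM in these mutant EBs and 0.101 TPM in controls. In a fit of only the groups compared, 0 genes in all were called in mutant ESCs of this line and 169 in mutant EBs. The mutant ESC calls of this and the following lists therefore rest on a spread estimated together with the EBs. *Fgf8* also rose in control EBs of this line against ESCs (2.95 ± 0.32), where *Bmp4* fell (-1.26 ± 0.18).

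Other streak and mesoderm genes went in both directions between stages. Of 21 measured genes, 4 were called higher and 3 lower in control EBs of the *Pcgf1* line, and 5 higher and 4 lower in *Pcgf1*-KO EBs, where 24.9% and 18.3% of all genes were called. The list medians were -0.45 and -0.28. *Cdx1*, a caudal homeobox gene, was 40.7 TPM on average in control ESCs and 0.756 TPM in control EBs, and *Sp5*, a target of Wnt signalling like *T*, went from 6.98 to 0.187 TPM. *Tcf15*, a bHLH gene of paraxial mesoderm, rose from 10.3 to 59.4 TPM. *Pdgfra* (2.11 ± 0.39) and *Cdx1* (1.52 ± 0.36) were called higher and none lower in *Pcgf1*-KO against control EBs. In ESCs only the Notch ligand gene *Dll1* was called (-2.30 ± 0.49). Of all genes, 1.95% were called in these EBs and 0.641% in these ESCs. For the point mutant line, 2 genes were called higher and 3 lower in control EBs against control ESCs, where 4.73% of all genes were called. Among them were *Dll1* (4.00 ± 0.48) and *Cdx1* (-6.16 ± 0.68). Against controls, 3 were called higher in mutant ESCs, where 2.54% of all genes were called (*Hand1*, *Foxc2* and *Foxc1*, at 2.73 ± 0.53, 2.72 ± 0.53 and 2.28 ± 0.44). A fit of only these ESC groups called 0 genes in all, so these calls were lost there. In mutant EBs 4 were called higher, against 4.53% of all genes called. *Cdx1* led these 4, at 25.3 TPM on average against 1.03 TPM (4.93 ± 0.68), with *Foxc1* (3.58 ± 0.44) and *Hand1* (3.10 ± 0.53).

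Of 8 genes of the anterior streak and definitive endoderm, 3 were called higher in *Pcgf1*-KO than in control EBs, against 1.95% of all genes called. These were *Gata6*, *Chrd* (1.11 ± 0.28), which encodes a BMP antagonist, and *Hhex* (0.93 ± 0.18). The list median was 1.02 against -0.028 over all genes. None of the 8 was called in *Pcgf1*-KO ESCs against controls. In control EBs against control ESCs 2 were lower (*Sox17* and *Hhex*, at -1.32 ± 0.42 and -0.78 ± 0.19), where 24.9% of all genes were called. In *Pcgf1*-KO EBs against *Pcgf1*-KO ESCs 2 were higher, where 18.3% of all genes were called. These were *Gata6* (1.80 ± 0.57) and *Lhx1*, the neighbour of *Lhx1os*, which went from 0.0735 to 0.714 TPM on average (2.23 ± 0.54, limma adjusted p = 0.00677). Whether the counting used strand is not given in the sources used here, so reads of *Lhx1* and *Lhx1os* may not be separable. *Gata6* of the point mutant line was higher in mutant ESCs (2.38 ± 0.28) and mutant EBs (1.61 ± 0.28), and *Hhex* in mutant EBs (1.56 ± 0.25). *Gata6* and *Sox17* are also in the list of primitive endoderm markers.

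The list of blood and endothelium, the fates that *Kdr* marks, had 4 of 11 genes called higher and 2 lower in control EBs of the *Pcgf1* line, where 24.9% of all genes were called, and a median of 0.13. *Lmo2* (3.67 ± 0.58) and *Tal1* (2.32 ± 0.49), which encode partners in a blood transcription complex, and *Etv2* (3.13 ± 0.99), which encodes an ETS factor of the same progenitors, were higher. *Pecam1* fell from 191.8 to 55.4 TPM, and *Cdh5*, a defining endothelial gene, was listed at 0 in all control and *Pcgf1*-KO ESCs and all *Pcgf1*-KO EBs, but not in all control EBs. In *Pcgf1*-KO EBs 2 were higher and 2 lower than in *Pcgf1*-KO ESCs, where 18.3% of all genes were called. Between *Pcgf1*-KO and control cells none was called in either stage. With *Ring1B* pm/pm, *Lmo2* was called higher (2.58 ± 0.43) and *Pecam1* lower (-1.02 ± 0.16) in mutant ESCs, and *Pecam1* lower in mutant EBs (-1.01 ± 0.16).

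The 5 members with measurable levels in the *Pcgf1* line did not share 1 pattern over its 19 libraries. Pearson's r of log2(TPM + 0.1) was 0.66 between *Eomes* and *Gsc*, 0.58 between *T* and *Kdr*, 0.33 between *T* and *Eomes*, 0.17 between *T* and *Mixl1* and -0.38 between *Mixl1* and *Gsc*. Stage and library series are shared by these points. Among 13400 genes with a mean of at least 1 TPM, *T* was most like *Fst* (r = 0.93) and *Lhfpl2* (0.89). *Fst* encodes follistatin, an activin antagonist that is on the list of other streak genes. The nearest to *Eomes* were *Nudt4*, *AU015836* and *Nrp2* (0.95 each), and to *Gsc* they were *Ly6g6d* (0.92), *Smarcd3* (0.92) and *Irak4* (0.91). *Mixl1* was most like *Amn*, *Mxra8* and *Nfyc* (0.82, 0.82 and 0.81) and *Kdr* like *Dsc2*, *Spg20* and *Hdac3* (0.87, 0.83 and 0.82).

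In the *Ring1A/B* line, the libraries labelled mutant EB had the highest *T* and *Kdr*. *T* was 4.25 and 4.11 TPM there, 2.98 and 3.73 TPM in libraries labelled control EB, 0.927 and 1.54 TPM in those labelled control ESC and 0.736 and 0.486 TPM in those labelled mutant ESC. *Kdr* was 2.12 and 2.39 TPM, 1.09 and 1.27 TPM, 0.134 and 0.0610 TPM, and 0.0830 and 0.0730 TPM in the same order. *Eomes* was 18.1 and 18.9 TPM in libraries labelled mutant EB and between 4.26 and 13.6 TPM in the other 6. *Lhx1* was 5.19 and 5.05 TPM there and at most 0.984 TPM elsewhere. The condition in the file's name differs from the label for 4 of these 8 libraries. Those labelled control EB (named mutant ESC) had *Klf4* at 665 and 709 TPM and *Fgf5* at 0.540 and 0.791 TPM, and those labelled mutant ESC (named control EB) had *Klf4* at 9.90 and 7.38 TPM and *Fgf5* at 27.98 and 27.5 TPM. The stage markers of these 4 libraries thus went against their labels and with the stage in the file's name. The same held over all 32 libraries of the lines given by label. *Fgf5* was 0 to 0.816 TPM where the file is named for ESCs and 7.53 to 46.3 TPM where it is named for EBs. *Klf4* was 120.4 to 766 TPM and 3.25 to 117.5 TPM in the same order. Differences between labelled groups of these lines therefore cannot be read as differences of stage. These markers do not check control against mutant.

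In the *Pcgf6* line *Mesp1* was 2.09 and 1.11 TPM in libraries labelled control EB and 1.24 and 1.58 TPM in those labelled mutant EB, against 0.383 and 0.153 TPM in those labelled control ESC and 0.378 and 0 TPM in those labelled mutant ESC. All 4 libraries labelled EB have a file named for mutant cells, and all 4 labelled ESC a file named for control cells. *Mesp2* followed the same order, at 7.71 to 11.1 TPM and 1.11 to 3.26 TPM. *T* was 1.61 and 0 TPM, 0.796 and 0.232 TPM, 2.20 and 0 TPM, and 1.31 and 0.276 TPM in libraries labelled control ESC, mutant ESC, control EB and mutant EB. The first library of each pair had *Klf4* at 142 to 200.2 TPM and the second at 3.25 to 16.1 TPM.

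The *Pcgf2/4* line had the lowest *Eomes*, at 1.48 to 6.47 TPM, and *Gsc* went from 0.124 to 9.72 TPM. In each labelled group, replicate 1 had the higher *Klf4* (120.4 to 168 against 8.54 to 11.1 TPM), *T* (0.526 to 1.40 against 0.102 to 0.253 TPM) and *Gsc* (5.96 to 9.72 against 0.124 to 0.441 TPM), and replicate 2 the higher *Fgf5*. In the *Pcgf3/5* line, *Eomes* was 11.3 to 12.8 TPM in the 4 libraries with *Klf4* at 138 to 183 TPM and 4.07 to 4.58 TPM in the 4 with *Klf4* at 6.80 to 12.1 TPM, and 3 of the former and 2 of the latter have a file named for another condition. *T* was 1.23 to 2.02 TPM in the former and 0.509 to 0.873 TPM in the latter. *Kdr* was at most 0.382 TPM in the *Pcgf2/4* line and 0.326 TPM in the *Pcgf3/5* line.

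**Figure D4:**
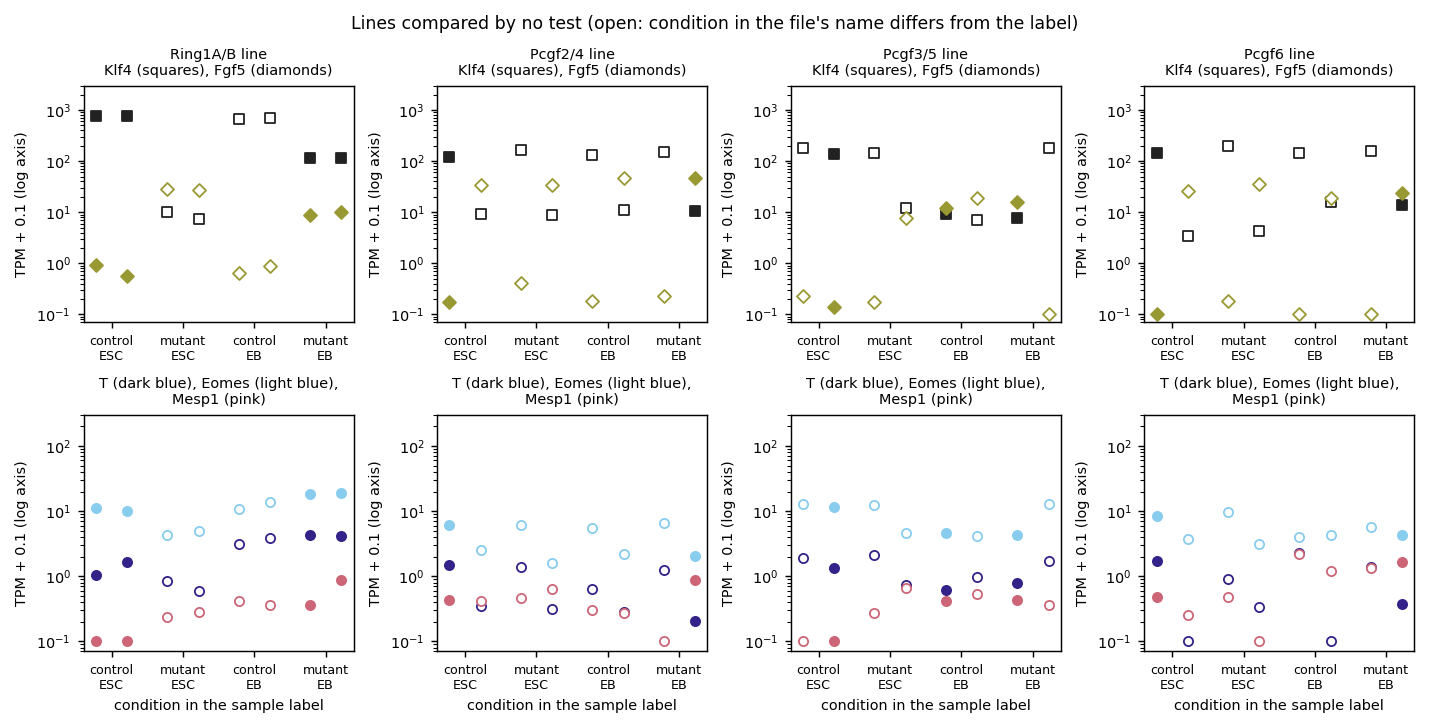
TPM + 0.1 (log axis) of *Klf4* and *Fgf5* (top) and of *T*, *Eomes* and *Mesp1* (bottom) in each library of 4 lines, by the condition in the sample label. Open symbols mark the 21 libraries whose file is named for another condition. In the *Ring1A/B* line, *Klf4* is 665 and 709 TPM in libraries labelled control EB and 9.90 and 7.38 TPM in those labelled mutant ESC.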

How the data were processed

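RNA-seq libraries were made with poly(A) selection and read on 1 end. Per the labels, the authors aligned reads to mm9 with STAR (2.5.2b) and counted exons, and deposited TPM per gene for each library. How counts were turned into TPM and whether strand was used are not given in the sources used here. The authors' fold changes were from DESeq2, which needs counts and was not used here. Groups were taken from the sample labels. TPM were tested as log2(TPM + 0.1) with limma 3.58.1 in R 4.3.3, in 1 fit per line over its 4 groups with a trended prior, over all genes above 0 in at least 1 library, with Benjamini-Hochberg adjustment and a threshold of 0.05. The fit was tested on simulated data. No 2 of 59 libraries held identical values (1711 pairs). In the *Pcgf1* line, same-numbered libraries deviated together from their group means (r 0.317 to 0.653 in 27 of 27 pairs, over 13400 genes), and 1 *Pcgf1*-KO EB library numbered 4 in its title is numbered 5 elsewhere in its labels. Promoters were read from RefSeq (GRCm38.p6), and positions from GENCODE vM1 on mm9. Genes named were the 8 members, the targeted genes, *Klf4* and *Fgf5*, the neighbours *Lhx1* and *Mesp2*, up to 3 genes per list, comparison and direction with the largest called change, and the 3 genes most correlated with each member, of which 1 is not reported here. Pathway and marker lists and the 8 members were chosen with earlier results of these data known. Alternatives were the pseudocount, a filter on low TPM, 2 scalings, the replicate block, fitting only the compared groups and leaving out each library. Depth is unknown from TPM, so no counting intervals are given.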

Additional observations from a re-analysis of the deposited data

Results flagged for a closer look

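*Gsc* in control ESCs of the *Pcgf1* line stood out because 1 library lay far from the others. Replicate 4 had 5.53 TPM against 2.17 to 2.42 TPM in the other 3, and the gap was 0.926 of the group's range. Of 14 groups examined this was the only 1, and chance gives about 5% of groups.

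The effect of *Pcgf1* loss on *T* differed between stages with the replicate number as a block, by -2.40 on the log2 scale (limma adjusted p = 0.0438). Without the block the difference was -2.27 (limma adjusted p = 0.483). *T* was higher in *Pcgf1*-KO ESCs in 4 of 4 same-numbered pairs and lower in *Pcgf1*-KO EBs in 5 of 5.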

How the results depend on the processing

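Of the alternative counts of members called, 174 kept the count or went from 2 to 3, 4 others rose and 25 fell. Of the alternative fold changes, 846 kept their direction and side of the threshold, 12 gained and 33 lost a call, and 22 turned. In the *Pcgf1* line, the 1 member called between *Pcgf1*-KO and control EBs became 0 in a fit of only the groups compared, 2 with the library series as a factor and 0 without replicates 4 and 5. The last 2 settings were chosen after seeing the data. The difference between stages had 1 member called with the replicate block and 1 with the series as a factor, instead of 0. In the point mutant line, quantile normalization gave 1 member called between control EBs and ESCs instead of 0. Between mutant and control ESCs the 1 call became 0 with a mean TPM of at least 1, with median-of-ratios scaling, with quantile normalization and in a fit of only the groups compared. Between mutant and control EBs the 2 calls became 1 with a pseudocount of 1, 1 with quantile normalization and 0 in a fit of only the groups compared.

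Leaving out 1 library gave 2 to 3, 2 to 3, 0 to 0, 1 to 1 and 0 to 0 members called in the *Pcgf1* line and 0 to 0, 0 to 0, 0 to 0, 0 to 1 and 0 to 0 in the point mutant line, in the order control EB against ESC, mutant EB against ESC, mutant ESC, mutant EB, and the difference between stages. In the point mutant line this leaves 1 library in a group, which is assumed to vary like the others. Directions turned for *T* between control EBs and ESCs of the *Pcgf1* line without replicates 4 and 5 (0.47) and with 1 library left out (-0.58 to 0.11). With 1 library left out they also turned for *Mixl1* between *Pcgf1*-KO EBs and ESCs (-0.14 to 0.35), *Gsc* in *Pcgf1*-KO ESCs (-0.29 to 0.24) and *Mixl1* in *Pcgf1*-KO EBs (-0.73 to 0.023, and 0.020 with quantile normalization). In the point mutant line they turned for *Gsc* between control EBs and ESCs (-1.85 to 0.68), *Eomes* between mutant EBs and ESCs (-0.14 to 0.38), and *Eomes* in mutant ESCs with quantile normalization (-0.0095). The difference between stages turned for *Mixl1* (-0.60 to 0.52, and 0.12 with quantile normalization), *Gsc* (-0.20 to 2.34) and *Kdr* (-0.50 to 1.45, and -0.017 with a pseudocount of 1). The cause was not tested.

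With the replicate block, all genes called went from 5138, 3770, 132, 402 and 1 to 9050, 7573, 1094, 2143 and 333 in the *Pcgf1* line. Same-numbered libraries of the point mutant line had r of 0.106 to 0.381, with only 2 numbers, and the block changed no member's call there. In a fit of only the groups compared, 68 genes were called between *Pcgf1*-KO and control EBs, and 0 and 169 between point mutant and control ESCs and EBs instead of 515 and 918. Higher calls in *Pcgf1*-KO EBs were 55.2% of all, 66.7% after quantile normalization and 46.4% with the replicate block. Unknown depth limits what can be said of members listed at 0.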
